A study of Homo sapiens with 24 samples.

Results

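The BCL2 family governs whether a cell commits to apoptosis through its mitochondria, and 10 of its genes, out of 58735 genes in the deposited table, were followed here through every treatment group. They were taken by name: 6 genes of BH3-only proteins (BMF, HRK, PMAIP1, BBC3, BCL2L11 and BID), 1 pore-forming effector (BAX) and 3 survival genes (BCL2, BCL2L1 and MCL1). RNA was sequenced from Sem and Nalm6, established acute lymphoblastic leukaemia lines of the B cell precursor type, of which Sem carries a KMT2A rearrangement. Each line gave 4 groups of 3 libraries: ibrutinib with asparaginase (the combination), asparaginase alone, ibrutinib alone, and untreated cells. Drugs were present for 24 h, with ibrutinib at 10 µM; the asparaginase dose is 1 IU/ml in the study design and 0.5 IU/ml in the treatment protocol. Ibrutinib is a covalent inhibitor of the tyrosine kinase BTK, and asparaginase breaks down the asparagine outside the cell. Every group of a line is the same cell line, and separate cultures were not described, so the p-values measure only the spread between libraries, which may be technical. Levels are bulk RNA values, in which fewer cells of a type and less RNA per cell cannot be told apart.

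BH3-only proteins carry a single short helix, the BH3 domain, with which they occupy the groove of the survival proteins BCL2, BCL-XL (the main product of BCL2L1) and MCL1. Some of them, such as BIM (BCL2L11), cleaved BID and PUMA (BBC3), also activate BAX directly, after which BAX opens the outer mitochondrial membrane and releases cytochrome c. NOXA (PMAIP1) binds mainly MCL1, and HRK binds BCL-XL. Leukaemia cells differ in which of the survival proteins they depend on, and BCL2 inhibitors are in clinical use.

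The unit is FPKM, reads per gene length and library size, so levels of different genes can be set side by side. Deposited values of 1 FPKM or more had lost their decimal point, and each was restored through the rule that it must stand for a whole number of reads. Of the 240 member values (10 genes in 24 libraries), 12 were 0, 3 were below 1 FPKM and so intact, and the lowest posterior probability of a restored decimal place was 0.998, in BCL2L1. Libraries held 15.03 M to 18.14 M reads in genes, and the members had between 36 reads (BMF) and 8700 reads (BCL2) per library wherever they were above 0. The lines were checked against marker lists. In Sem, 8 of 10 B cell precursor markers reached a group mean of 1 FPKM, and in Nalm6 10 of 10. Of 8 T and NK cell markers, 1 did so in each line, with CD3D and CD3E at 0 in all groups of both. Of 8 myeloid markers, 3 did so in untreated Sem, 2 in treated Sem and 1 in Nalm6. Of 4 plasma cell markers, 1 did so in Nalm6 and 0 in Sem. Of 6 erythroid and stromal markers, 1 did so in Sem and 0 in Nalm6. These 6 summed in Sem to 6.515 to 6.917 FPKM with ibrutinib, against 3.506 to 3.781 FPKM untreated. The lowest correlation between libraries of a group was r = 0.983, in the Nalm6 combination group.

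Sequences before a RefSeq start are shown for the BH3-only genes with the largest rises in a line on the log2(FPKM + 1) scale. These were BMF and then HRK in Nalm6, and PMAIP1 in Sem. By the ratio of mean FPKM in the Sem combination group to untreated Sem, BBC3 (1.88) was above PMAIP1 (1.82). BCL2L11, which fell in Nalm6, was added, and motifs of stress-responsive and FOXO factors were looked for in these sequences. Each runs 5′ to 3′ on the gene's strand over the 200 bases that end 51 bases before the RefSeq start (GRCh38.p14), each shares 0 bases with annotated exons, and capitals mark a motif match.
BMF, chr15:40108930-40109129, minus strand: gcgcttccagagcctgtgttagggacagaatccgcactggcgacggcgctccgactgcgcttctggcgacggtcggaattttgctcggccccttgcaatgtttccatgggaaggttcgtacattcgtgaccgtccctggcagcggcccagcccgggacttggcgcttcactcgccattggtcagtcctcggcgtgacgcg
HRK, chr12:116881492-116881691, minus strand: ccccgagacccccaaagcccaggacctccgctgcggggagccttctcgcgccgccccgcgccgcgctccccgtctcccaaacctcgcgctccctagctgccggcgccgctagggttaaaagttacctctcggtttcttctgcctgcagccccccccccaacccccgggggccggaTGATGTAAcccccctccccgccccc
PMAIP1, chr18:59899746-59899945, plus strand: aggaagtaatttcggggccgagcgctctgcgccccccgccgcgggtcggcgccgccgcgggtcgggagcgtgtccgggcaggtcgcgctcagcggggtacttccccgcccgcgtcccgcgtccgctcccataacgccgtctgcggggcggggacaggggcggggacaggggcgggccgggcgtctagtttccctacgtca
BCL2L11, chr2:111120664-111120863, plus strand: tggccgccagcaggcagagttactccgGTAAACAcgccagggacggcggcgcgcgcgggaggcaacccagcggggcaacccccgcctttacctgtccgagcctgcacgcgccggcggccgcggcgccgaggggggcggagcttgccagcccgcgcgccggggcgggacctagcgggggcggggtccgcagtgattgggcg

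The search covered 3 motifs on both strands of the 250 bases before the start, namely the ATF4 and C/EBP composite element TGATGNAA, the FOXO element GTAAACA and the E-box CACGTG, which reads the same on both strands. Of 35116 RefSeq windows of this length, 3.14% held the first, 2.98% the second and 6.34% the third. Of these, 15 windows belonged to 9 of the 10 members, since some genes have several starts and MCL1 had no entry. Among the members, HRK held the composite element with its first base at -75 and BCL2L11 held the FOXO element at -223. The BCL2L11 window lies before a RefSeq start but inside the deposited span of the gene, which begins at 111119378. E-boxes began at -138, -93, -45 and -14 in BAX, at -106 and -47 in BID and at -232 in BBC3. No member window held more than 1 of the 3 motifs, and the BMF and PMAIP1 windows held none. A match is a string of letters, not a measured binding site, and its absence says only that these letters are not in this window.

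BMF (hg38 chromosome 15, 40087890 to 40108892, minus strand) was the member with the largest change in Nalm6. Its protein binds the dynein light chain DYNLL2 and, once released, the survival proteins. In Sem, BMF stood at 30.9, 32.4 and 33.0 FPKM in the combination libraries, 33.7, 31.5 and 33.5 FPKM with asparaginase and 26.6, 26.4 and 25.5 FPKM with ibrutinib, against 25.0, 24.9 and 24.0 FPKM in untreated cells. The combination and asparaginase libraries overlapped each other and lay above both other groups. In Nalm6, BMF stood at 6.36, 6.87 and 6.82 FPKM with the combination, 2.501, 3.14 and 3.40 FPKM with asparaginase and 1.27, 1.47 and 1.58 FPKM with ibrutinib, against 0.425, 0.426 and 0.474 FPKM in untreated cells. No 2 Nalm6 groups overlapped, and the group means were 15.1, 6.83 and 3.26 times the untreated mean with the combination, asparaginase and ibrutinib. Every Sem library, untreated ones included, was nonetheless above every Nalm6 library. On the log2(FPKM + 1) scale, which understates changes of low genes, BMF rose in Nalm6 by 2.41 ± 0.09 (SE) with the combination (limma adjusted p = 3.6e-09), by 1.47 with asparaginase (adjusted p = 2.6e-07) and by 0.76 with ibrutinib (adjusted p = 0.00066). In Sem it rose by 0.37 with the combination (adjusted p = 1.2e-05) and by 0.40 with asparaginase (adjusted p = 2.8e-05), while the change with ibrutinib was 0.09 (adjusted p = 0.094; 0.17 after TPM rescaling and 0.20 after quantile normalization, with adjusted p of 0.0041 and 0.0014). With a pseudocount of 0.25 FPKM the Nalm6 rises were 3.33, 2.23 and 1.29 with the combination, asparaginase and ibrutinib. A gene was tested if it reached 1 FPKM in 3 or more libraries of the line. Untreated Nalm6 lay below that, so BMF entered the Nalm6 tests through the treated groups alone, which limits their p-values. An antisense gene, BMF-AS1, lies wholly within BMF exons over its 461 bases and, without stated strand, may share reads with it; in Sem it had 5.72 to 6.74 FPKM with the combination, 5.83 to 6.19 FPKM with asparaginase and 1.54 to 2.80 FPKM with ibrutinib, against 4.07 to 4.71 FPKM untreated, so with ibrutinib it lay below untreated cells while BMF lay above them. In Nalm6 BMF-AS1 had 0.70 to 1.83 FPKM with the combination, 0.516 to 1.41 FPKM with asparaginase and 0 to 0.261 FPKM with ibrutinib, against 0 untreated.

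HRK (chromosome 12, 116856144 to 116881441, minus strand) had reads in Nalm6 alone. All 12 Sem libraries had 0 HRK reads, which at a floor of 3 reads allows a level of up to 0.0255 to 0.0301 FPKM, depending on the library, so HRK was not tested within Sem. In Nalm6, HRK stood at 17.3, 19.0 and 19.9 FPKM with the combination, 13.9, 14.9 and 15.3 FPKM with asparaginase and 15.2, 13.9 and 14.2 FPKM with ibrutinib, against 7.14, 7.16 and 7.88 FPKM in untreated cells. Treated and untreated libraries did not overlap, the 2 single drugs overlapped each other, and the combination lay above both. The log2 rises were 1.23 ± 0.06 with the combination (adjusted p = 3.4e-08), 0.90 with asparaginase (adjusted p = 7e-07) and 0.88 with ibrutinib (adjusted p = 3.7e-05).

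PMAIP1 (chromosome 18, 59899948 to 59904306, plus strand), which encodes NOXA, had the highest mean of the BH3-only members in each of the 8 groups, although BID overlapped it in untreated Sem. In Sem it stood at 53.1, 51.1 and 50.9 FPKM with the combination, 49.2, 47.1 and 49.6 FPKM with asparaginase and 37.8, 37.1 and 35.8 FPKM with ibrutinib, against 27.6, 28.5 and 28.9 FPKM in untreated cells. These 4 groups did not overlap. PMAIP1 rose in Sem by 0.84 ± 0.03 with the combination (adjusted p = 2e-08), 0.76 with asparaginase (adjusted p = 9.2e-08) and 0.37 with ibrutinib (adjusted p = 1.6e-05). In Nalm6 it stood at 56.8, 45.2 and 43.7 FPKM with the combination, 49.1, 45.9 and 44.1 FPKM with asparaginase and 38.5, 40.9 and 43.5 FPKM with ibrutinib, against 30.9, 36.8 and 34.1 FPKM in untreated cells. Combination library 1 was the highest, and the 3 treated groups lay above untreated cells with small gaps. The Nalm6 rises were 0.50 ± 0.10 with the combination (adjusted p = 0.00091) and 0.44 with asparaginase (adjusted p = 0.0026), and the ibrutinib change was 0.27 (adjusted p = 0.1; 0.039 after TPM rescaling and 0.036 after quantile normalization).

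BBC3 (chromosome 19, 47220822 to 47232766, minus strand), which encodes PUMA, was low in both lines. In Sem it stood at 7.90, 8.16 and 6.95 FPKM with the combination, 6.54, 6.30 and 6.34 FPKM with asparaginase and 4.75, 5.501 and 6.16 FPKM with ibrutinib, against 4.92, 3.77 and 3.52 FPKM in untreated cells. The ibrutinib libraries overlapped the untreated ones, and the other groups did not. The Sem rises were 0.78 ± 0.10 with the combination (adjusted p = 8.6e-05), 0.55 with asparaginase (adjusted p = 0.0028) and 0.36 with ibrutinib (adjusted p = 0.018); the last lost its call without untreated library 2 or 3 or ibrutinib library 3 (adjusted p of 0.057, 0.072 and 0.073). In Nalm6, BBC3 stood at 5.61, 7.71 and 8.49 FPKM with the combination, 7.82, 9.52 and 9.02 FPKM with asparaginase and 3.03, 3.04 and 2.83 FPKM with ibrutinib, against 3.57, 4.11 and 3.70 FPKM in untreated cells. The combination and asparaginase libraries overlapped each other and lay above untreated cells, and the ibrutinib libraries lay below them. BBC3 rose by 1.03 ± 0.12 with asparaginase (adjusted p = 2.8e-05) and by 0.77 with the combination (adjusted p = 0.00016), and the ibrutinib difference was -0.27 (adjusted p = 0.16).

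BCL2L11 fell in Nalm6, and BID fell in both lines, with asparaginase and with the combination. BCL2L11, the gene of BIM (chromosome 2, 111119378 to 111168447, plus strand), stood in Sem at 16.04, 17.4 and 18.1 FPKM with the combination, 16.6, 15.8 and 17.1 FPKM with asparaginase and 17.6, 18.1 and 18.5 FPKM with ibrutinib, against 15.98, 16.3 and 17.6 FPKM in untreated cells. All 3 treated groups overlapped untreated Sem, and the log2 changes were 0.04, -0.01 and 0.11 with adjusted p of 0.51, 0.92 and 0.1. After TPM rescaling BCL2L11 passed in Sem as a rise of 0.14 with the combination (adjusted p = 0.023) and 0.20 with ibrutinib (adjusted p = 0.0036), and after quantile normalization likewise (adjusted p of 0.027 and 0.0099). In Nalm6, BCL2L11 stood at 3.95, 4.50 and 4.52 FPKM with the combination, 5.47, 5.13 and 5.60 FPKM with asparaginase and 7.42, 6.57 and 7.57 FPKM with ibrutinib, against 8.70, 7.76 and 8.69 FPKM in untreated cells. Each treated group lay below untreated Nalm6. BCL2L11 fell by 0.82 with the combination (adjusted p = 1.6e-06) and by 0.55 with asparaginase (adjusted p = 5.3e-05). The ibrutinib difference was -0.20 (adjusted p = 0.088), and it passed with both lines in 1 fit (adjusted p = 0.029).

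BID (chromosome 22, 17734138 to 17774770, minus strand) links the death receptors to mitochondria after caspase-8 cleaves its protein. In Sem, BID stood at 21.6, 23.0 and 23.3 FPKM with the combination, 20.34, 20.497 and 21.9 FPKM with asparaginase and 26.3, 26.1 and 26.8 FPKM with ibrutinib, against 27.5, 27.2 and 29.2 FPKM in untreated cells. In Nalm6 it stood at 2.34, 2.92 and 2.31 FPKM with the combination, 4.23, 4.16 and 4.55 FPKM with asparaginase and 7.26, 7.73 and 7.60 FPKM with ibrutinib, against 8.75, 8.42 and 10.0 FPKM in untreated cells. All treated groups lay below untreated cells of their line. In Sem, BID fell by 0.30 with the combination (adjusted p = 0.00015) and by 0.40 with asparaginase (adjusted p = 6.3e-05). In Nalm6 it fell by 1.52 ± 0.08 with the combination (adjusted p = 3.8e-08) and by 0.92 with asparaginase (adjusted p = 3e-06), so that the combination mean was 0.278 of the untreated mean. The ibrutinib differences, -0.08 in Sem and -0.24 in Nalm6, did not pass the test (adjusted p of 0.16 and 0.076). The Nalm6 one passed with limma-voom on recovered reads (adjusted p = 0.047) and with both lines in 1 fit (adjusted p = 0.014).

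**Figure D1:**
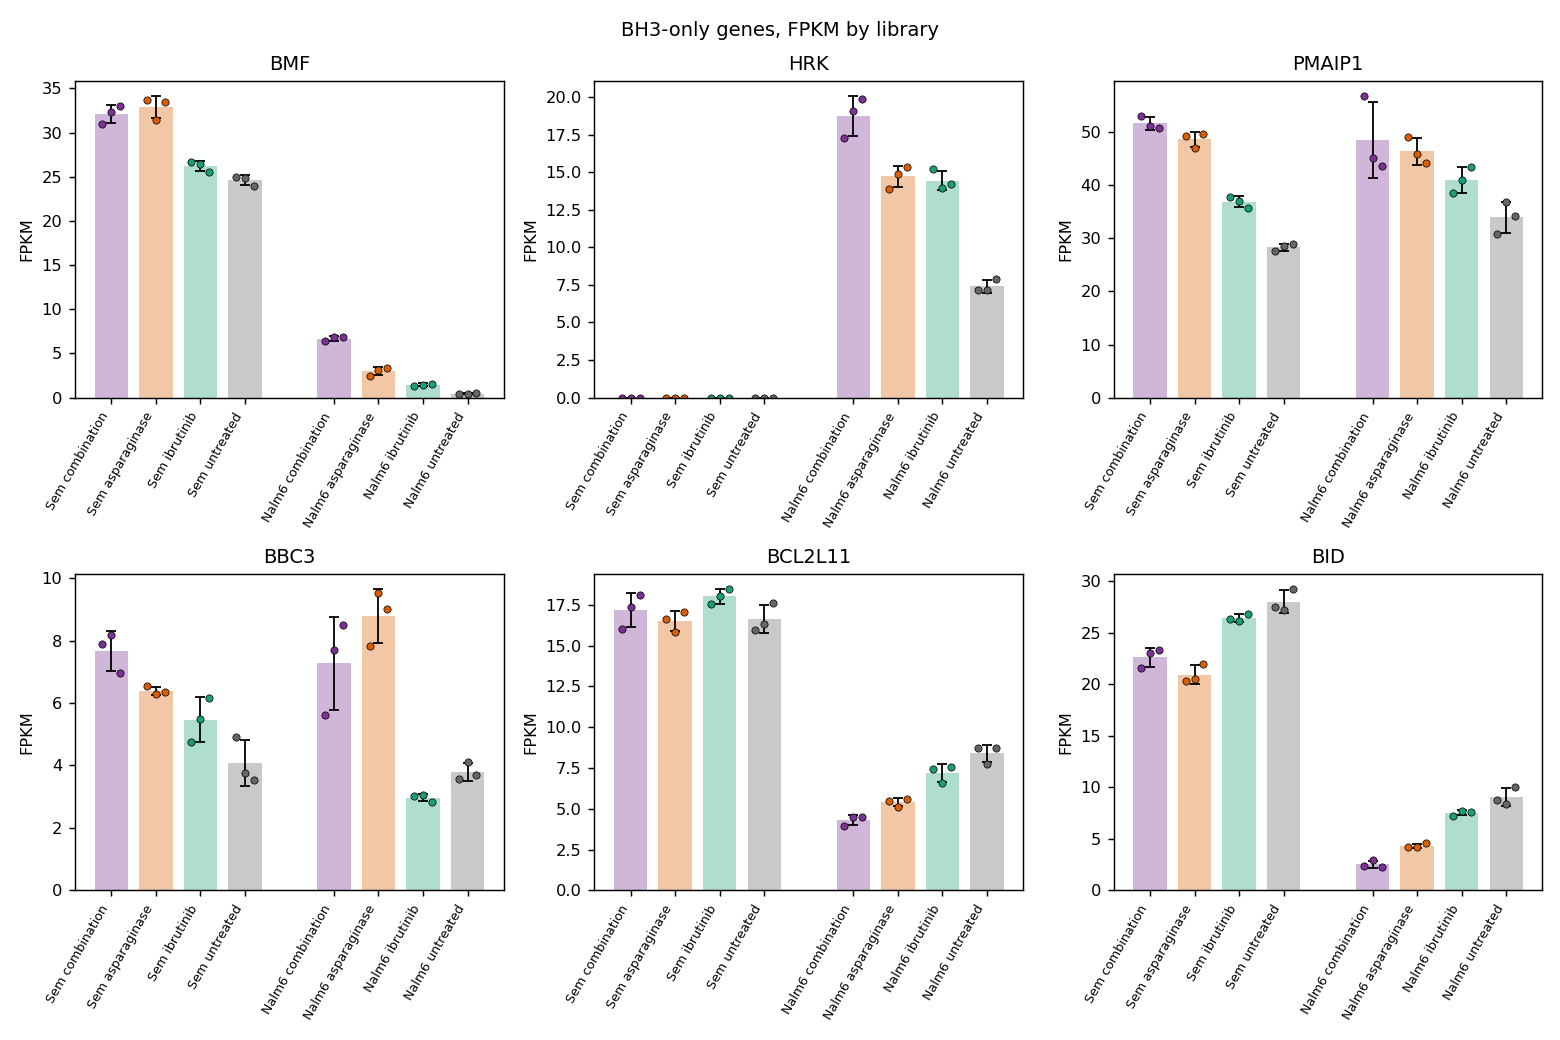
FPKM of the 6 BH3-only genes in every library; bars are group means, error bars are SD over 3 libraries and each panel has its own linear axis from 0. BMF climbs to 6.68 FPKM in the Nalm6 combination group but stays under the 24.6 FPKM of untreated Sem, HRK is 0 throughout Sem, and BID and BCL2L11 are lowest in the Nalm6 combination group.

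Of the survival genes, BCL2 (chromosome 18, 63123346 to 63320128, minus strand) moved in opposite directions in the lines. In Sem, BCL2 stood at 41.7, 44.4 and 43.8 FPKM with the combination, 34.9, 34.0 and 34.9 FPKM with asparaginase and 38.7, 38.2 and 40.4 FPKM with ibrutinib, against 28.98, 29.8 and 29.97 FPKM in untreated cells. The 4 Sem groups did not overlap. BCL2 rose in Sem by 0.54 ± 0.03 with the combination (adjusted p = 3.7e-07), 0.22 with asparaginase (adjusted p = 0.00091) and 0.39 with ibrutinib (adjusted p = 9.4e-06). In Nalm6, BCL2 stood at 3.20, 3.41 and 3.32 FPKM with the combination, 4.38, 4.32 and 4.33 FPKM with asparaginase and 3.72, 3.88 and 3.24 FPKM with ibrutinib, against 5.71, 5.63 and 5.38 FPKM in untreated cells. Each treated group lay below untreated Nalm6, and the combination and ibrutinib groups overlapped. BCL2 fell in Nalm6 by 0.61 ± 0.06 with the combination (adjusted p = 4.4e-06), 0.30 with asparaginase (adjusted p = 0.0013) and 0.51 with ibrutinib (adjusted p = 0.00059). The asparaginase fall in Nalm6 was -0.19 (adjusted p = 0.052) after rescaling to TPM. In Sem, summed marker levels moved with ibrutinib too: 8 myeloid markers, of which 2 or 3 reached 1 FPKM and ELANE was 0 in every group, summed to 44.6 to 47.8 FPKM with the combination, 99.7 to 106.2 FPKM with asparaginase and 48.6 to 54.7 FPKM with ibrutinib, against 99.3 to 122.9 FPKM untreated. The 10 B cell precursor markers summed to 791.4 to 816.5 FPKM with the combination, 549.7 to 572.2 FPKM with asparaginase and 755.1 to 786.0 FPKM with ibrutinib, against 588.0 to 621.4 FPKM untreated; the part of either in the BCL2 result was not tested. Marker sums moved in Nalm6 as well. The 10 B cell precursor markers summed to 2447 to 2460 FPKM with the combination, 1931 to 1992 FPKM with asparaginase and 2754 to 2932 FPKM with ibrutinib, against 2564 to 2702 FPKM untreated. The 8 myeloid markers, of which 1 reached 1 FPKM and CEBPA and ELANE were 0 in every group, summed to 7.24 to 7.999 FPKM, 4.23 to 4.56 FPKM and 7.18 to 9.27 FPKM in the same treated groups, against 12.4 to 14.6 FPKM untreated. The 4 plasma cell markers, of which 1 reached 1 FPKM and JCHAIN was 0 except in the combination group, summed to 8.73 to 11.02 FPKM, 12.4 to 14.98 FPKM and 21.1 to 21.7 FPKM, against 26.9 to 33.4 FPKM untreated. The part of these in the Nalm6 changes of the members was not tested.

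BCL2L1, the gene of BCL-XL (chromosome 20, 31664452 to 31723989, minus strand), rose with the combination in both lines. In Sem it stood at 16.7, 15.996 and 17.1 FPKM with the combination, 14.4, 13.5 and 13.7 FPKM with asparaginase and 12.7, 14.4 and 14.3 FPKM with ibrutinib, against 14.2, 13.7 and 12.002 FPKM in untreated cells. The combination libraries lay above every other Sem library, and the single drugs overlapped untreated cells. The Sem rise with the combination was 0.30 ± 0.06 (adjusted p = 0.0021), and the differences were 0.06 with asparaginase and 0.05 with ibrutinib (adjusted p of 0.57 and 0.58). In Nalm6, BCL2L1 stood at 30.1, 32.5 and 32.5 FPKM with the combination, 23.0, 26.4 and 25.1 FPKM with asparaginase and 22.7, 23.8 and 24.5 FPKM with ibrutinib, against 21.1, 19.9 and 20.502 FPKM in untreated cells. It rose in Nalm6 by 0.61 ± 0.06 with the combination (adjusted p = 3.4e-06) and by 0.26 with asparaginase (adjusted p = 0.0022). The ibrutinib rise of 0.20 had an adjusted p of 0.045 and lost its call without any 1 of the 6 libraries compared (adjusted p of 0.069 to 0.14). The antisense gene ABALON shares 1424 exon bases with BCL2L1; in Sem it had 2.08 to 2.71 FPKM with the combination, 1.59 to 2.39 FPKM with asparaginase and 1.16 to 2.27 FPKM with ibrutinib, against 1.54 to 2.37 FPKM untreated. In Nalm6 ABALON had 4.73 to 6.17 FPKM with the combination, 3.69 to 5.22 FPKM with asparaginase and 5.13 to 7.12 FPKM with ibrutinib, its highest group, against 3.28 to 4.50 FPKM untreated.

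MCL1 (chromosome 1, 150574551 to 150579738, minus strand) had the highest mean of the members in each group, although PMAIP1 overlapped it in the Sem combination group. In Sem, MCL1 averaged 53.7 ± 0.841 FPKM with the combination, 60.7 ± 1.11 FPKM with asparaginase and 58.8 ± 1.17 FPKM with ibrutinib, against 66.1 ± 2.09 FPKM in untreated cells (SD, n = 3 each), and the treated groups lay below the untreated one. In Nalm6 it averaged 65.4 ± 4.02 FPKM with the combination, 59.4 ± 2.16 FPKM with asparaginase and 68.2 ± 0.720 FPKM with ibrutinib, against 72.0 ± 1.55 FPKM in untreated cells (SD, n = 3 each). MCL1 fell in Sem by 0.29 with the combination (adjusted p = 2e-05), 0.12 with asparaginase (adjusted p = 0.018) and 0.16 with ibrutinib (adjusted p = 0.002). In Nalm6 it fell by 0.27 with asparaginase (adjusted p = 0.00061) and by 0.14 with the combination (adjusted p = 0.028), and the ibrutinib difference was -0.08 (adjusted p = 0.32). The asparaginase call in Sem was lost without untreated library 3 or asparaginase library 2 (adjusted p of 0.069 and 0.062), and the combination call in Nalm6 without untreated library 1 or 2 or combination library 2 or 3 (adjusted p of 0.055 to 0.11). These directions hang on the scaling: after quantile normalization the differences were 0.03 with ibrutinib and 0.02 with asparaginase in Sem, and 0.05 with asparaginase and 0.21 with the combination in Nalm6, the last called as a rise (adjusted p = 0.0035), and after rescaling to TPM the Nalm6 combination difference was 0.03. The combination fall in Sem was -0.04 after quantile normalization (adjusted p = 0.34), and after TPM rescaling it was -0.20 (adjusted p = 0.00065). The other called falls after TPM rescaling were -0.08 with ibrutinib and -0.03 with asparaginase in Sem and -0.12 with asparaginase in Nalm6, and these calls were lost (adjusted p of 0.1, 0.54 and 0.066).

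BAX (chromosome 19, 48954815 to 48961798, plus strand), the pore-forming effector, averaged 31.0 ± 0.0762 FPKM with the combination, 29.8 ± 1.10 FPKM with asparaginase and 30.3 ± 1.36 FPKM with ibrutinib in Sem, against 34.1 ± 3.30 FPKM in untreated cells (SD, n = 3 each), and each treated group overlapped the untreated one. In Nalm6 it averaged 26.2 ± 3.35 FPKM with the combination, 23.0 ± 2.12 FPKM with asparaginase and 15.8 ± 0.530 FPKM with ibrutinib, against 17.3 ± 0.169 FPKM in untreated cells (SD, n = 3 each). BAX rose in Nalm6 by 0.56 ± 0.09 with the combination (adjusted p = 0.00018) and by 0.39 with asparaginase (adjusted p = 0.003). In Sem the asparaginase fall of 0.19 had an adjusted p of 0.043, and it was -0.10 and not called after TPM rescaling or quantile normalization (adjusted p of 0.2 and 0.22), and it lost the call without any 1 of 5 of the 6 libraries compared, with adjusted p of 0.06 to 0.15, but not without untreated library 2. The ibrutinib differences in BAX, -0.16 in Sem (adjusted p = 0.052) and -0.12 in Nalm6 (adjusted p = 0.39), and that with the combination in Sem, -0.13 (adjusted p = 0.1), did not pass. Without untreated Sem library 2, which at 30.4 FPKM was the lowest of its group, the falls with ibrutinib and with the combination passed (adjusted p of 0.0017 and 0.0028).

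**Figure D2:**
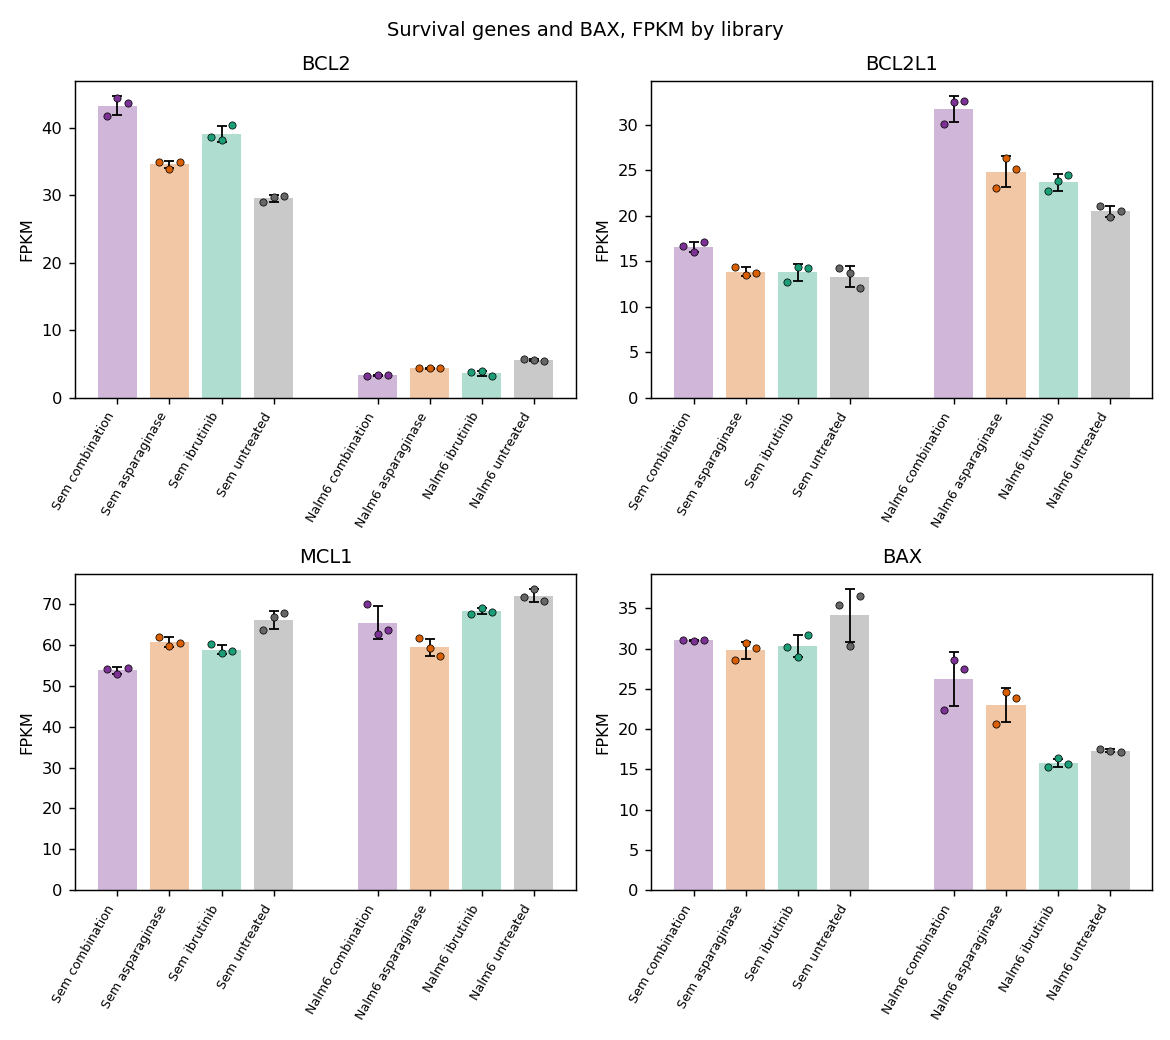
FPKM of the 3 survival genes and of BAX in every library, with group means as bars and SD over 3 libraries as error bars, on linear axes from 0. BCL2 is highest in the Sem combination group (43.3 FPKM) and lowest in the Nalm6 combination group (3.31 FPKM), while BCL2L1 is highest in the Nalm6 combination group (31.7 FPKM).

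Counted together, the members moved in both directions in each line. In Sem, 9 members were tested. With the combination 5 rose and 2 fell, where 52.9% of all genes tested were called (26.6% higher, 26.3% lower). With asparaginase 4 rose and 3 fell, where 26.4% were called (11.4% higher, 15.1% lower). With ibrutinib 3 rose and 1 fell, where 41.5% were called (20.3% higher, 21.3% lower). In Nalm6, 10 members were tested. With the combination 6 rose and 4 fell, where 63.7% of all genes were called (32.4% higher, 31.3% lower). With asparaginase 6 rose and 4 fell, where 56.3% were called (28.2% higher, 28% lower). With ibrutinib BMF, HRK and BCL2L1 rose and BCL2 fell, 3 and 1 members, where 12.4% were called (4.99% higher, 7.46% lower). The share of members called is thus to be read against a background in which up to 63.7% of genes moved. The median log2 change of the BH3-only members was 0.37 in Sem and 0.64 in Nalm6 with the combination, beside 0.02 over all genes tested in either line. That of the survival members was 0.30 in Sem and -0.14 in Nalm6 with the combination. With ibrutinib alone the BH3-only medians were 0.11 in Sem and 0.03 in Nalm6.

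**Figure D3:**
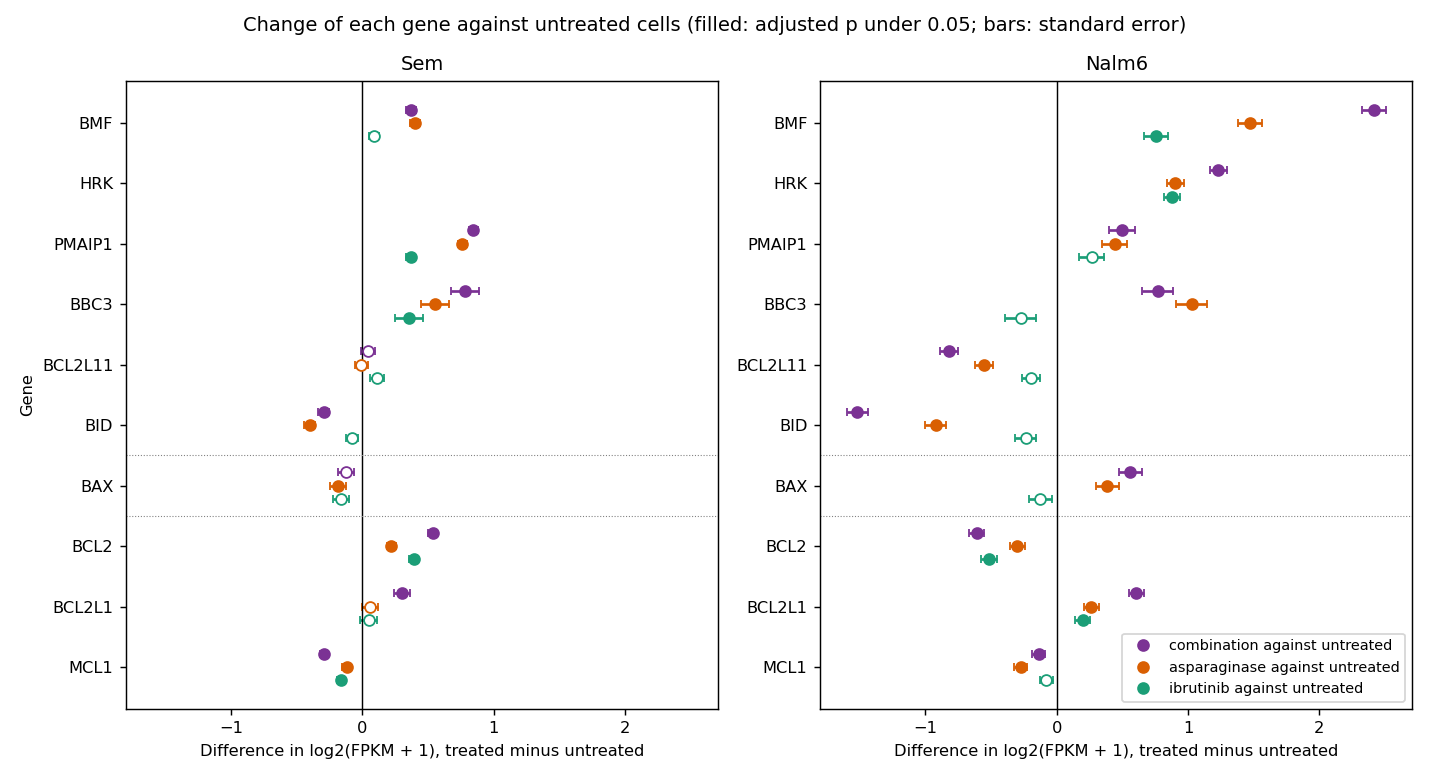
Difference in log2(FPKM + 1) of each member against untreated cells of its line, with standard errors; filled points have a limma adjusted p under 0.05, and dotted lines separate BH3-only genes, BAX and survival genes. BMF in Nalm6 spans 0.76 to 2.41, BID in Nalm6 reaches -1.52, and BCL2 lies right of 0 in Sem and left of 0 in Nalm6; HRK has no point in Sem, where it is 0.

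Summed FPKM set the 2 classes against each other in every library. In Sem, the 6 BH3-only genes summed to 131.2 ± 1.47 FPKM with the combination, 125.4 ± 3.77 FPKM with asparaginase and 113.0 FPKM (112.8 to 113.2 FPKM) with ibrutinib, against 101.7 ± 1.42 FPKM in untreated cells (SD, n = 3 each). The 3 survival genes summed to 113.6, 109.1 and 111.7 FPKM in the same treated groups, against 108.9 FPKM in untreated Sem. The ratio of the sums was 1.16, 1.15 and 1.01 in the treated groups, against 0.934 in untreated Sem. In Nalm6, the BH3-only sum was 88.1 ± 3.67 FPKM with the combination, 82.6 ± 0.518 FPKM with asparaginase and 74.5 ± 2.44 FPKM with ibrutinib, against 63.0 ± 3.07 FPKM in untreated cells (SD, n = 3 each). The survival sum was 100.5, 88.5 and 95.4 FPKM in these treated groups, against 98.1 FPKM in untreated Nalm6, and the ratio was 0.877, 0.933 and 0.781, against 0.643. In both lines the ratio was higher in every treated library than in every untreated one. In Nalm6, however, the combination libraries (0.860 to 0.893) lay below the asparaginase libraries (0.922 to 0.945). PMAIP1 made up 39.4% of the BH3-only sum in the Sem combination group and 27.9% in untreated Sem, and 55.0% and 53.8% in the same Nalm6 groups, and MCL1 made up 47.3% and 60.6% of the survival sum in Sem and 65.1% and 73.4% in Nalm6. BMF was 7.61% of the BH3-only sum in the Nalm6 combination group and 0.701% in untreated Nalm6. The ratio of BMF to BCL2 in FPKM was 2.02 in the Nalm6 combination group and 0.0794 in untreated Nalm6, whereas in Sem it was 0.741 and 0.833. These sums describe RNA levels and carry no test, because the members were chosen with results known.

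**Figure D4:**
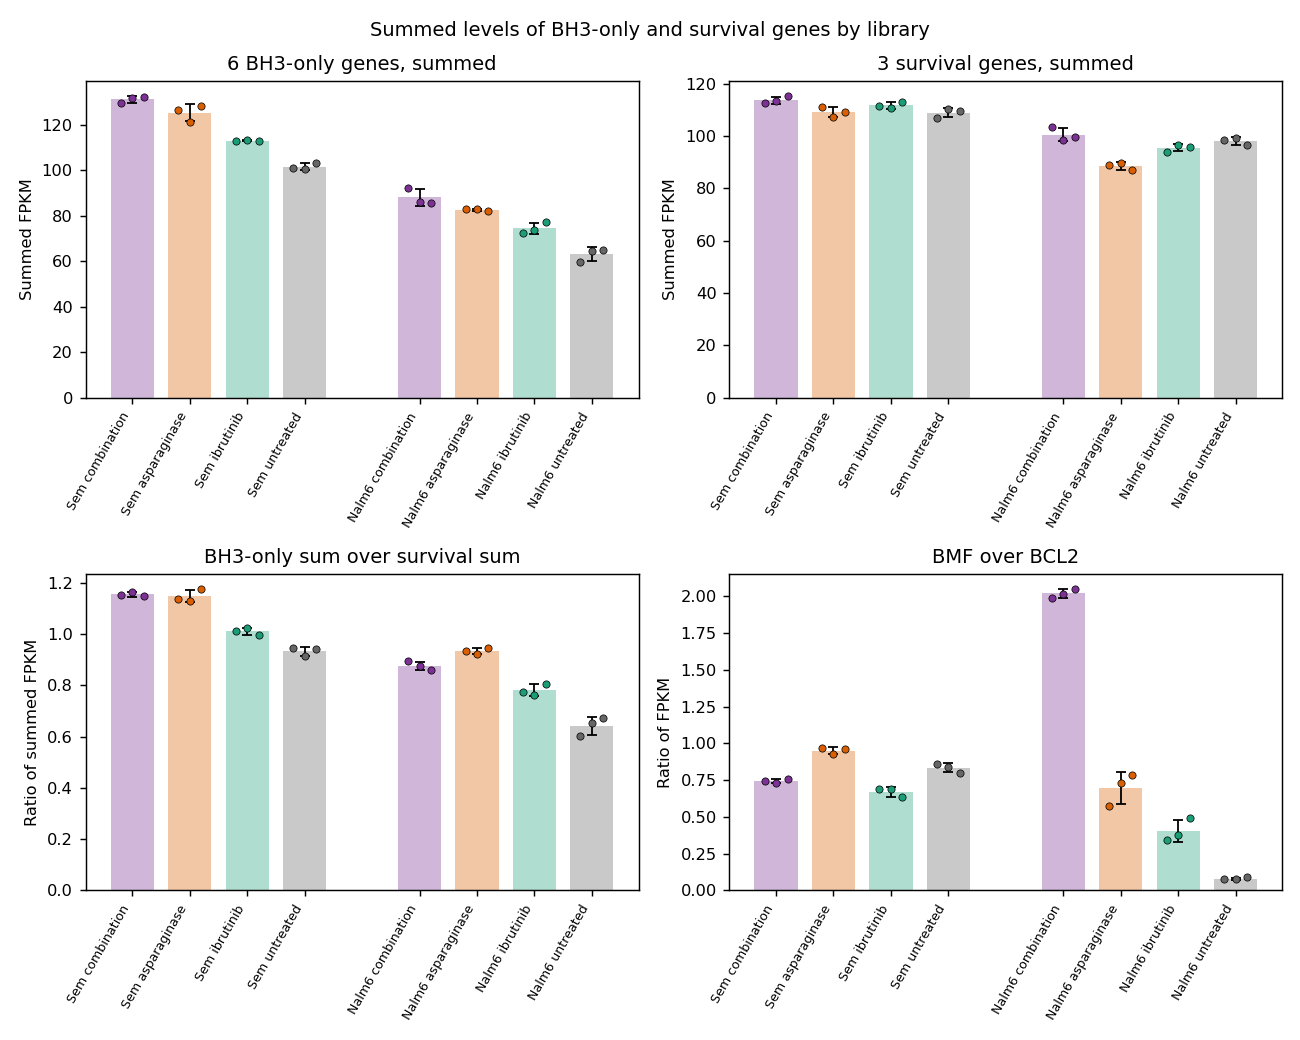
Summed FPKM of the BH3-only and survival genes, their ratio, and the BMF to BCL2 ratio, in every library, with group means as bars and SD over 3 libraries as error bars on linear axes from 0. The ratio of the sums is above that of untreated cells in each treated group of both lines, and the BMF to BCL2 ratio reaches 2.02 in the Nalm6 combination group.

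The combination was also set against each single drug. Over asparaginase alone, BMF rose further in Nalm6 by 0.94 (adjusted p = 5.4e-05), HRK by 0.33 (adjusted p = 0.0039) and BCL2L1 by 0.34 (adjusted p = 0.0017), and BID fell by 0.60 (adjusted p = 0.00044), BCL2 by 0.31 (adjusted p = 0.0036) and BCL2L11 by 0.27 (adjusted p = 0.019). These 3 rises and 3 falls among 10 members stand beside 21.8% of all genes called (9.78% higher, 12% lower). Without combination library 1 the BCL2L11 difference was -0.22 (adjusted p = 0.055), without asparaginase library 3 it was -0.24 (adjusted p = 0.07), and BAX passed as a rise of 0.28 without combination library 1 (adjusted p = 0.015). In Sem, adding ibrutinib to asparaginase raised BCL2 by 0.32 (adjusted p = 3.6e-05) and BCL2L1 by 0.24 (adjusted p = 0.011) and lowered MCL1 by 0.17 (adjusted p = 0.0016; -0.06 after quantile normalization, adjusted p = 0.16), which is 2 rises and 1 fall, where 38.3% of genes were called (18.6% higher, 19.8% lower). The 5 BH3-only members tested there had adjusted p of 0.07 to 0.52, but 3 of them passed as rises under alternatives. BBC3 did so with limma-voom on recovered reads (adjusted p = 0.035) and with GC and length trends removed (adjusted p = 0.019). PMAIP1 passed after quantile normalization (adjusted p = 0.0032). BID passed after TPM rescaling (adjusted p = 0.023), quantile normalization (adjusted p = 0.003), removal of GC and length trends (adjusted p = 0.046), and without asparaginase library 3 or combination library 1 (adjusted p of 0.035 and 0.037).

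Over ibrutinib alone, the combination raised BMF by 1.66, BBC3 by 1.04, BAX by 0.69, BCL2L1 by 0.41 and HRK by 0.35 in Nalm6 and lowered BID by 1.28 and BCL2L11 by 0.62, with adjusted p from 9.4e-08 to 0.00065, which is 5 rises and 2 falls, where 57.2% of genes were called (29.5% higher, 27.7% lower). BCL2 passed as a further fall without ibrutinib library 3 (adjusted p = 0.036) and after quantile normalization (adjusted p = 0.012). MCL1 passed as a fall without combination library 1 (adjusted p = 0.041), but as a rise of 0.174 after quantile normalization (adjusted p = 0.012). PMAIP1 passed as a rise without combination library 3, after TPM rescaling and after quantile normalization (adjusted p of 0.032, 0.0097 and 0.0028). It also passed with limma-voom, both lines in 1 fit or GC and length trends removed (adjusted p of 0.035, 0.014 and 0.00067). In Sem, the combination over ibrutinib raised PMAIP1 by 0.48 (adjusted p = 9.3e-06), BBC3 by 0.43 (adjusted p = 0.023), BMF by 0.28 (adjusted p = 0.0008), BCL2L1 by 0.25 (adjusted p = 0.025) and BCL2 by 0.14 (adjusted p = 0.02), and lowered BID by 0.22 (adjusted p = 0.0074) and MCL1 by 0.13 (adjusted p = 0.025), where 12.2% were called (4.84% higher, 7.31% lower). The Sem count of 7 was 3 without ibrutinib library 1 and 4 without combination library 1, 2 or 3. With no filter BBC3 and BCL2L1 missed the threshold (adjusted p of 0.063 and 0.059), and MCL1 did after quantile normalization (-0.08, adjusted p = 0.19). The interaction, the combination change minus the sum of the single-drug changes, was called as lower for 1 member in each line, against 1.59% of genes in Sem (0.783% higher, 0.805% lower) and 5.59% in Nalm6 (2.99% higher, 2.6% lower). In Sem it was PMAIP1 at -0.28 (adjusted p = 0.022), a call lost without ibrutinib library 1 or 2, asparaginase library 1 or combination library 2 or 3 (adjusted p of 0.052 to 0.067). In Nalm6 it was HRK at -0.55 ± 0.09 (adjusted p = 0.0057). BMF, at -0.12 in Sem and 0.19 in Nalm6, did not pass (adjusted p of 0.3 and 0.45), and its Nalm6 sign turned to -0.19 with a pseudocount of 0.25 FPKM. BAX in Nalm6, at 0.30 (adjusted p = 0.2), passed without combination library 1 (0.405, adjusted p = 0.026) and with GC and length trends removed (adjusted p = 0.034). BID in Nalm6, at -0.36 (adjusted p = 0.094), passed after TPM rescaling, quantile normalization or limma-voom (adjusted p of 0.038, 0.042 and 0.038). It also passed with both lines in 1 fit, those trends removed or combination library 2 left out (adjusted p of 0.015, 0.047 and 0.04). MCL1 in Nalm6, at 0.22 (adjusted p = 0.1), passed with both lines in 1 fit or those trends removed (adjusted p of 0.017 and 0.016). The PMAIP1 interaction in Sem had an adjusted p of 0.23 with both lines in 1 fit. After rescaling to TPM, 16.7% of the genes called for the Sem interaction were higher, against 49.3% before, and 34.6% for the Nalm6 interaction, against 53.5% before.

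Before treatment the lines differed in 8 of the 9 members with reads in both, 5 of them higher and 3 lower in Sem, where 65.8% of all genes were called (34% higher and 31.8% lower in Sem). Untreated Sem had higher BMF (24.6 FPKM, against 0.442 FPKM in untreated Nalm6), BCL2 (29.6 against 5.57 FPKM), BID (28.0 against 9.07 FPKM), BAX (34.1 against 17.3 FPKM) and BCL2L11 (16.6 against 8.39 FPKM). The log2 differences, Sem minus Nalm6, were 4.15, 2.22, 1.53, 0.94 and 0.91, with adjusted p from 1.9e-21 to 2.1e-09. HRK was 0 in Sem, against 7.39 FPKM in Nalm6, and carries no test because it passed the filter through Nalm6 alone. Sem was lower in BCL2L1 (13.3 against 20.49 FPKM, log2 difference -0.59), PMAIP1 (28.3 against 33.9 FPKM, -0.25) and MCL1 (66.1 against 72.0 FPKM, -0.12), with adjusted p from 4.2e-08 to 0.0089. The MCL1 call was lost without untreated Sem library 1 (adjusted p = 0.052). BBC3, at 4.07 FPKM in Sem and 3.79 FPKM in Nalm6, differed by 0.07 (adjusted p = 0.6). Between the lines the authors' own scaling of the libraries also differed, at 0.919 to 0.984 in Sem and 0.982 to 1.09 in Nalm6 relative to total reads, and it moves all levels of a library together. It also parted treated from untreated libraries, at 0.946 to 0.984 in treated against 0.919 to 0.940 in untreated Sem, and at 1.03 to 1.09 in treated against 0.982 to 0.995 in untreated Nalm6.

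Ordered by level, untreated Sem ran MCL1, BAX, BCL2, PMAIP1, BID, BMF, BCL2L11, BCL2L1, BBC3 and HRK, where BID (27.2 to 29.2 FPKM) overlapped both PMAIP1 and BCL2 and no other neighbours overlapped. Untreated Nalm6 ran MCL1, PMAIP1, BCL2L1, BAX, BID, BCL2L11, HRK, BCL2, BBC3 and BMF, where BID (8.42 to 10.0 FPKM), BCL2L11 (7.76 to 8.70 FPKM) and HRK (7.14 to 7.88 FPKM) overlapped their neighbours. With the combination BMF moved to the seventh place in Nalm6, beside BBC3, and BID to the last.

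The drug effects themselves differed between the lines for several members. HRK is left out here, because at 0 reads in Sem its difference is only the Nalm6 change with its sign turned. The combination effect, Sem minus Nalm6, was -2.05 for BMF, -0.69 for BAX and -0.305 for BCL2L1, and 1.22 for BID, 1.14 for BCL2, 0.86 for BCL2L11 and 0.35 for PMAIP1, with adjusted p from 2.9e-12 to 0.014. With MCL1 (-0.16, adjusted p = 0.029) these were 4 higher and 4 lower differences among 9 members, where 40.8% of genes were called (22.2% higher, 18.6% lower). For asparaginase alone, 5 differences were higher and 3 lower, where 33.5% of genes were called (17.7% higher, 15.7% lower). For ibrutinib alone, 3 were higher and 1 lower, where 13.6% were called (7.56% higher, 6.09% lower). BCL2 had the largest positive ibrutinib difference, 0.90 ± 0.06 (adjusted p = 8.2e-09), and BBC3 differed by 0.63 with ibrutinib (adjusted p = 0.015) and by -0.47 with asparaginase (adjusted p = 0.033), a call lost without any 1 of 7 of the 12 libraries compared (adjusted p of 0.057 to 0.1). Because BMF starts low in Nalm6, its differences are bound to the log2(FPKM + 1) scale. The PMAIP1 difference with the combination was 0.18 after quantile normalization (adjusted p = 0.19).

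Other genes of the pathway came from 6 lists. Of 13 other BCL2 family genes, 8 were tested. With the combination 2 rose and 2 fell in Sem and 3 rose and 4 fell in Nalm6. All such list counts stand beside the share of all genes called with the combination, 52.9% in Sem (26.6% higher, 26.3% lower) and 63.7% in Nalm6 (32.4% higher, 31.3% lower). BIK, another BH3-only gene, stood at 1.92 FPKM in the Sem combination group and 0.868 FPKM in untreated Sem (log2 change 0.64, adjusted p = 0.012), and at 2.60 FPKM and 4.84 FPKM in the same Nalm6 groups (-0.70, adjusted p = 0.0026). The untreated Sem mean of BIK lay below 1 FPKM, so BIK needed the treated groups to pass the filter in Sem. The second pore-forming effector, BAK1, fell in Sem by 0.29 with the combination (adjusted p = 0.0062). BNIP3L, a mitophagy receptor, rose in Nalm6 by 0.93 with the combination (adjusted p = 1.9e-06), while asparaginase lowered it in Sem by 0.27 (adjusted p = 0.014).

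Downstream of BAX, 14 of 15 apoptosome and caspase genes were tested, of which 2 rose and 6 fell in Sem and 4 rose and 7 fell in Nalm6 with the combination, where 52.9% of all genes were called in Sem and 63.7% in Nalm6. Cytochrome c itself (CYCS) fell to 21.3 ± 0.646 FPKM in the Sem combination group, against 45.3 ± 2.44 FPKM in untreated Sem, and to 30.0 ± 4.50 FPKM in the Nalm6 combination group, against 88.1 ± 8.96 FPKM in untreated Nalm6 (SD, n = 3 each). The CYCS log2 changes were -1.06 in Sem (adjusted p = 3.9e-08) and -1.53 in Nalm6 (adjusted p = 6.4e-07). AIFM1, a flavoprotein of the space between the mitochondrial membranes, fell by 0.66 in Sem (adjusted p = 1.5e-06) and by 0.97 in Nalm6 (adjusted p = 7.7e-07). Of the 6 inhibitors of apoptosis 4 were tested, and with the combination 3 rose and 1 fell in each line, against the same background. BIRC2 rose by 0.62 in Sem (adjusted p = 1.7e-05) and by 0.80 in Nalm6 (adjusted p = 4.1e-05), and BIRC5, the mitotic protein survivin, fell by 0.60 in Sem (adjusted p = 7e-06) and by 0.62 in Nalm6 (adjusted p = 4.9e-07).

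The death receptor list was counted in each line, and no test was made over the list. Tested gene by gene, the combination effect, Sem minus Nalm6, was lower for 4 and higher for 0 of 8 genes. Over all genes 18.6% were lower and 22.2% higher. With the combination 1 of 7 genes tested rose and 3 fell in Sem, and 6 of 8 rose in Nalm6, where 26.6% of all genes rose and 26.3% fell in Sem and 32.4% rose in Nalm6. TNFRSF10B, a receptor for TRAIL, had 6.32 FPKM in the Sem combination group and 8.13 FPKM in untreated Sem (log2 change -0.32, adjusted p = 0.01), and 14.1 FPKM and 7.37 FPKM in the same Nalm6 groups (0.86, adjusted p = 8e-07). TNFRSF1A, a receptor for TNF, changed by -0.34 in Sem (adjusted p = 0.0022) and by 0.96 in Nalm6 (adjusted p = 3.6e-06). CFLAR, an inhibitor of caspase-8 at these receptors, rose in Nalm6 by 0.77 (adjusted p = 2.2e-06). Its untreated Nalm6 mean was 0.9635 FPKM, so CFLAR needed the treated groups to pass the filter of 1 FPKM.

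Of 15 transcription factors known to act on BH3-only genes 12 were tested, and with the combination 7 rose and 2 fell in Sem and 6 rose and 3 fell in Nalm6, where 52.9% of all genes were called in Sem and 63.7% in Nalm6. DDIT3, the stress factor CHOP, had 24.8 ± 3.89 FPKM with asparaginase and 7.78 ± 0.984 FPKM untreated in Sem, and 63.3 ± 5.92 FPKM and 10.1 ± 1.05 FPKM in the same Nalm6 groups (SD, n = 3 each); the lowest posterior of a restored DDIT3 value was 0.814. The DDIT3 rises with asparaginase were 1.55 in Sem (adjusted p = 3.6e-06) and 2.54 in Nalm6 (adjusted p = 4.8e-09). ATF3, another stress factor, rose with asparaginase by 0.91 in Sem (adjusted p = 0.00015) and by 0.99 in Nalm6 (adjusted p = 2.5e-06). Other factors of the list fell. MYC had 146.6 FPKM in the Nalm6 combination group and 334.1 FPKM in untreated Nalm6 (log2 change -1.19, adjusted p = 2.2e-06). JUN fell in Sem by 0.47 with the combination (adjusted p = 0.00018). With ibrutinib JUN fell by 0.77 in Sem (adjusted p = 1.2e-05) and by 0.41 in Nalm6 (adjusted p = 0.0088). FOXO3, known to activate BCL2L11 and BBC3 in other settings, rose with asparaginase in Nalm6 by 0.66 (adjusted p = 8.3e-06). In that comparison BCL2L11 fell by 0.55 and BBC3 rose by 1.03, and a part of FOXO3 in either was not tested. Among the 6 partner and turnover genes, the combination lowered 2 in Sem and lowered 3 and raised 2 in Nalm6, against the same background. The BMF partner DYNLL2 fell in Nalm6 by 0.35 (adjusted p = 0.00016), and VDAC2, an outer-membrane channel that binds BAX and BAK1, fell by 0.22 in Sem (adjusted p = 0.0055) and by 0.80 in Nalm6 (adjusted p = 1.6e-07).

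The genes most like each member were found by Pearson's r over the 8 group means of log2(FPKM + 1), centred within each line, among 11741 genes; with 8 points that share untreated groups this is a description, given for the 8 members called against untreated cells in both lines. Highest were WAC for BMF (r = 0.991), LMBRD2 for PMAIP1 (r = 0.992), BCOR for BBC3 (r = 0.994), UHRF1 for BID (r = 0.995), KDELR2 for MCL1 (r = 0.987), JOSD2 for BCL2L1 (r = 0.983) and the unnamed gene AC092849.1 for BAX (r = 0.993). The pattern of BCL2, which rose in Sem and fell in Nalm6, was matched less closely, by MIR563 (r = 0.963) and ANKRD16 (r = 0.960). BCL2L11, which was not called in Sem, is outside that choice; its closest gene, GALNT14 (r = 0.999), is named after its value was seen.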

How the data were processed

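RNA of 24 libraries was measured. Per the labels' protocols, RNA was purified on RNeasy columns and libraries were made with the NEBNext Ultra RNA kit; strand was not stated. Per the submitters' processing notes, fastp, STAR and featureCounts were used on hg38, with versions not given in the sources used here. The authors deposited FPKM per gene, and gene positions are as deposited. In the deposited table, 299165 of 1409640 FPKM values (21.2%), those of 1 or more, had lost their decimal point; 206596 values under 1 were intact. Each intact value times gene length was a whole multiple of 1 step per library (largest deviation 9.09e-13 reads). Candidate powers of 10 that gave whole reads were scored per gene and line with Student t priors (5 degrees of freedom within groups, 2.5 between), on log10 scales of 0.07 for libraries, 0.1 for ibrutinib, 0.13 for asparaginase and 0.08 for the interaction. An earlier version with 5 degrees of freedom between groups was replaced after simulation. Tested on simulated data, 99.944% of 117422 damaged values came back right. With 40 genes each, 11 that rose 4-fold in all treatments and 8 that rose 8-fold with asparaginase alone did not. Nor did 2 of 40 that rose 16-fold with the combination alone. In the real data 499 values had a posterior under 0.99.

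limma-trend (limma 3.58.1, R 4.3.3) was run two-sided on log2(FPKM + 1) for genes that reached 1 FPKM in 3 or more of the fitted libraries. P-values were adjusted by Benjamini-Hochberg over those genes, and an adjusted p under 0.05 was a call. Each line was fitted with its 12 libraries (8 residual degrees of freedom) to compare treated with untreated cells and the combination with single drugs and to estimate the interaction; both lines together (16 residual degrees of freedom) gave Sem minus Nalm6. The count tests planned for whole counts were not used, since the deposited unit is FPKM, and limma-voom on recovered reads served as an alternative. The other alternatives were another pseudocount, no filter, TPM, quantile normalization, a replicate block, removal of GC and length trends, no prior trend, both lines in 1 fit, near-certain values only, and each library left out. On simulated data limma called 44% of genes changed 1.25-fold and 90% of genes changed 2-fold for asparaginase in Sem, among 12826 genes, and 38% and 88% in Nalm6, among 12423 genes. Only 50 genes were changed at each fold, while the real asparaginase comparisons called 26.4% of genes in Sem and 56.3% in Nalm6. Adjustment depends on how many genes change, so these rates may not hold for the real tests. The numbers were not taken to pair the libraries: same-numbered libraries' deviations correlated at -0.031 to 0.105 in Sem and -0.199 to 0.375 in Nalm6. Differently numbered libraries of different groups correlated at -0.11 to 0.096 in Sem and -0.263 to 0.304 in Nalm6. The medians for same and different numbers were 0.041 and -0.0195 in Sem, and 0.017 and -0.0045 in Nalm6.

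Members and lists were chosen with earlier results of these data known, so no test over a list was made. All members are named, and from each list up to 3 called genes of largest change per comparison could be. Promoter sequences are from RefSeq (GRCh38.p14), and 9 of 10 members matched. A floor of 3 reads covers counting error alone.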

Additional observations from a re-analysis of the deposited data

Results flagged for a closer look

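Drug effects that differed between the lines, by the limma test of Sem minus Nalm6 in log2(FPKM + 1), are given here for the members that passed. With ibrutinib the difference was 0.903 for BCL2, 0.627 for BBC3 and 0.309 for BCL2L11, and it was -0.672 for BMF. With asparaginase it was 0.542 for BCL2L11, 0.518 for BCL2, 0.517 for BID, 0.316 for PMAIP1 and 0.155 for MCL1, and it was -1.068 for BMF, -0.574 for BAX and -0.474 for BBC3. With the combination it was 1.22 for BID, 1.143 for BCL2, 0.861 for BCL2L11 and 0.345 for PMAIP1, and it was -2.045 for BMF, -0.69 for BAX, -0.305 for BCL2L1 and -0.155 for MCL1. The differences given here for BMF, BCL2, BID and BAX kept their side of the threshold in every alternative run. HRK is left out, since with 0 reads in Sem its difference is only the Nalm6 change with its sign turned. For BCL2L11 the ibrutinib difference had an adjusted p of 0.05 to 0.061 without Sem untreated library 1, Nalm6 untreated library 1 or 3 or Nalm6 ibrutinib library 2. With asparaginase, 3 calls were lost without single libraries, at adjusted p of 0.051 to 0.1: BBC3 without Sem untreated library 1, Sem asparaginase library 2 or 3, Nalm6 untreated library 1 or 3 or Nalm6 asparaginase library 2 or 3, PMAIP1 without Sem untreated library 1, Sem asparaginase library 1 or 3, Nalm6 untreated library 2 or 3 or Nalm6 asparaginase library 2 or 3, and MCL1 without Sem untreated library 1, Sem asparaginase library 1 or 3, Nalm6 untreated library 1 or 2 or Nalm6 asparaginase library 2 or 3. The MCL1 difference with the combination was lost without Sem untreated library 2 or 3, Sem combination library 2, Nalm6 untreated library 1 or 3 or Nalm6 combination library 1 (adjusted p of 0.051 to 0.074). With limma-voom the MCL1 differences also missed the threshold (adjusted p of 0.06 with asparaginase and 0.052 with the combination). Scaling and the filter removed calls too. With asparaginase, PMAIP1 was 0.07 after quantile normalization (adjusted p = 0.67), 0.257 after TPM rescaling (adjusted p = 0.069) and had an adjusted p of 0.059 with no filter. BBC3 was -0.423 after quantile normalization (adjusted p = 0.057) and had an adjusted p of 0.071 with no filter. MCL1 was 0.09 after TPM rescaling (adjusted p = 0.28) and -0.028 after quantile normalization (adjusted p = 0.77), and had an adjusted p of 0.053 with no filter and 0.051 with no prior trend. With the combination, PMAIP1 was 0.178 after quantile normalization (adjusted p = 0.19).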

How the results depend on the processing

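Of 2872 member values under alternatives, 2686 kept direction and side of the threshold, 107 lost a call, 72 gained one and 7 turned, all of MCL1, of which 6 were called before; 41 more changed sign with no call before or after. MCL1 turned under quantile normalization to 0.034 with ibrutinib and 0.023 with asparaginase in Sem, to 0.047 with asparaginase and 0.209 with the combination in Nalm6, to 0.174 for the combination over ibrutinib in Nalm6 and to -0.028 for the asparaginase difference between lines, and under TPM to 0.034 with the combination in Nalm6. TPM moved the median of all genes by 0.15 with asparaginase and 0.166 with the combination in Nalm6, and the share of called genes that rose to 70.2% with asparaginase in Sem (43.0% before) and 70.5% with ibrutinib in Nalm6 (40.1% before; 55.6% under quantile normalization); the cause was not tested. The TPM run kept the added 1 after rescaling, so for low genes it can also act as a change of pseudocount. The BMF rise with the combination in Nalm6 was 3.43 under TPM and 3.33 with a pseudocount of 0.25 FPKM, against 2.41 before. Members called with ibrutinib in Nalm6 (4) were 7 with both lines in 1 fit. In the Nalm6 interaction (1) they were 2 under TPM, quantile normalization or limma-voom, 4 with both lines in 1 fit or with GC and length trends removed, 3 with those and a replicate block, and 1 to 2 with a library left out. In Sem, the combination over asparaginase (3) gave 5 with GC and length trends removed, with or without a replicate block; the combination over ibrutinib (7) gave 3 to 6 with a library left out; and the interaction (1) gave 0 with both lines in 1 fit and 0 to 2 with a library left out. Genes called over the whole table with ibrutinib in Nalm6 (1647) were 862 under quantile normalization, 2653 with GC and length trends removed and 706 to 1531 with a library left out. For the Nalm6 interaction (740) they were 541 to 1528 and 431 to 977, for the Sem combination over ibrutinib (1631) 1214 to 2127 and 1047 to 1181, and for the Sem interaction (213) 138 to 535 and 86 to 381. With the replicate block alone, 6 members were called with ibrutinib in Sem (4 before, with BCL2L11 and BAX added) and 4 for the Sem combination over asparaginase (3 before, with BID added). No other member count changed. Because the numbers were not taken to pair the libraries, these added calls were not read as stronger effects. Depth limits BMF in untreated Nalm6, with its few reads, and HRK in Sem, where 0 reads allow no fold.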
